A study of Rattus norvegicus with 20 samples.

Results

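Liver endothelial marker genes were read in 20 male Harlan Sprague-Dawley rats given isodecyl diphenyl phosphate (IDDP) by gavage, or the vehicle alone. IDDP is an organophosphate flame retardant and plasticiser. The 8 genes are Gpr182, Stab2, Lyve1, Kdr, Tek, Pecam1, Cdh5 and Vwf. Their probe sets are those that the array annotation pairs with exactly 1 of these symbols. There were 10 such probe sets for 7 of the 8 genes, out of 31042 tested. Gpr182, Lyve1 and Kdr had 2 probe sets each, Stab2, Tek, Pecam1 and Vwf had 1 each, and Cdh5 was not analysed here because no probe set was paired with that symbol alone. All rats received 4 daily doses in corn oil and their livers were taken on day 5. There were 5 vehicle controls (0 mg/kg), and the dosed groups of 3 rats received 66, 132, 263.6, 527.1 or 1054.2 mg per kg of body weight a day. Each rat had its own Affymetrix array, for which 100 ng of RNA from the left lobe was labelled.

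The hepatic sinusoids are lined by a fenestrated endothelium that takes up waste macromolecules such as hyaluronan from the blood through scavenger receptors. These cells depend on VEGF signalled through Kdr and on angiopoietins signalled through Tek, and they share junction proteins such as Pecam1 and Cdh5 with other endothelia. Von Willebrand factor is better known from the endothelium of larger vessels, and from platelets and megakaryocytes, than from sinusoidal cells.

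The values are log2 intensities, on which a difference of 1 is a doubling. Array medians lay between 6.31 and 6.41, and 0 arrays had values identical to another. The 10 probe sets were measurable in whole liver: 9 had a mean above 6.365, the median over all tested probe sets, and the exception was the dimmer Kdr probe set (5.63). The 3' minus 5' difference of housekeeping control probe sets grows as RNA degrades, and it was 1.68 ± 0.11 at 1054.2 mg/kg and 1.64 ± 0.27 in the controls, with the highest mean, 2.31 ± 0.89, at 132 mg/kg (SD). Over the 20 arrays, Pearson's r of the 7 genes with that difference, read from the same arrays, ran from -0.30 for Lyve1 to 0.13 for Vwf.

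Most of these markers were measured lower in dosed rats than in controls, with medians of -0.34 to -0.25 over the 5 doses. At 1054.2 mg/kg the brighter Gpr182 probe set was 1.45-fold lower and Pecam1 was 1.43-fold lower, and these 2 of the 10 probe sets passed the test. The test was limma's moderated test at a Benjamini-Hochberg adjusted p under 0.05, with all 31042 probe sets in the adjustment, and 1.44% of all tested probe sets fell at this dose. At 527.1 mg/kg 1 of 10 fell, the brighter Gpr182 probe set, against 0.483% of all tested probe sets. None of the 10 passed at 66, 132 or 263.6 mg/kg, where 0%, 0.0322% and 0.155% of all tested probe sets fell. At an unadjusted p under 0.05 there were 5, 4 and 5 lower and 1, 0 and 0 higher of the 10 at these doses, where 1.54%, 6.78% and 5.25% of all tested probe sets were lower. In whole tissue, fewer endothelial cells and less of these RNAs per cell cannot be told apart.

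The 10 changes had a median of -0.32, -0.25, -0.34, -0.33 and -0.33 in rising order of dose, and 8, 8, 9, 8 and 8 of them were below 0. Over all tested probe sets the median was between -0.02 and 0.01, and 50.4%, 53.8%, 46.5%, 51.4% and 51.5% were below 0. All dose comparisons use the same 5 controls, so the doses are not independent of each other. Counting probe sets whose dosed rats all lay below all controls gave 1, 1, 5, 3 and 4 of 10, where 1.91%, 3.85%, 4.18%, 4.85% and 5.81% of all tested probe sets did so. At 66 and 527.1 mg/kg 1 probe set lay wholly above the controls, Vwf and the dimmer Kdr probe set, against 2.68% and 7.04% of all tested probe sets.

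**Figure D1:**
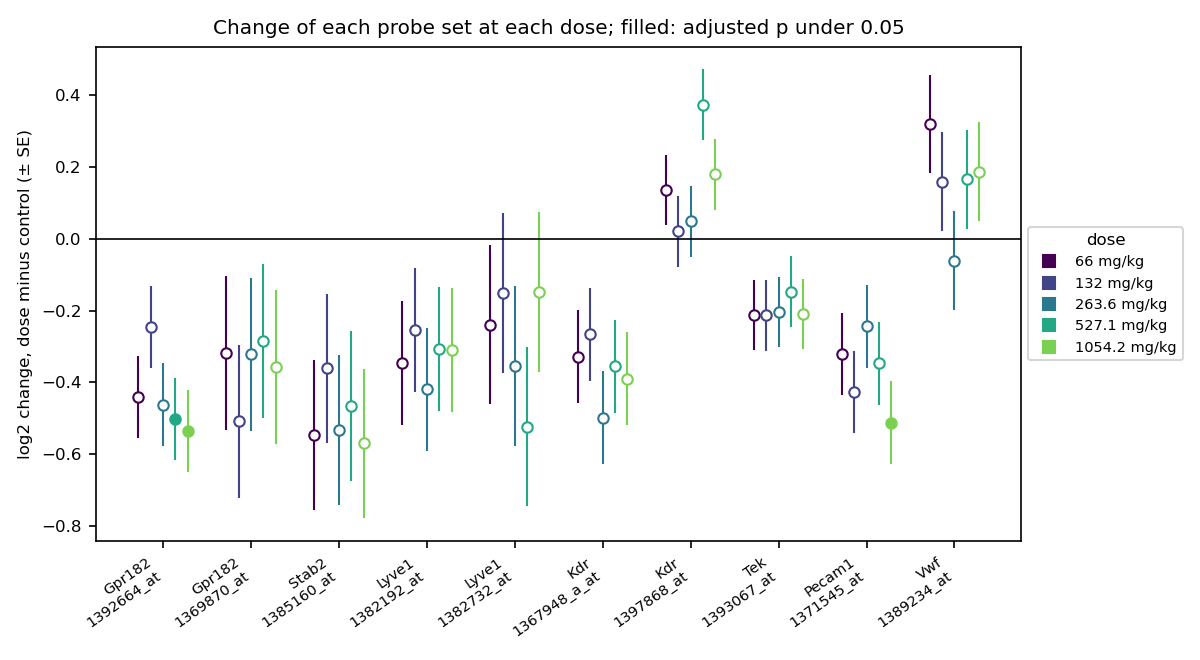
Log2 change of each of the 10 probe sets at each dose minus the 5 controls (y axis; points with SE bars from limma, 3 rats a dose), with probe sets along the x axis and doses in colours from low to high. Filled points passed at adjusted p under 0.05: the brighter Gpr182 probe set at 527.1 and 1054.2 mg/kg and Pecam1 at 1054.2 mg/kg. The points above 0 belong to the dimmer Kdr probe set and Vwf.

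Promoters are shown for the 4 of the 8 genes that have an entry in the RefSeq promoter table of the rat assembly GRCr8. The values of these 4 genes were positively correlated over the rats, as described further on, so the sequences let their start regions be set side by side. Each runs 5' to 3' on the gene's strand, from 250 bases before the start site to 50 bases after it.
Gpr182, chr7:65474061-65474360 (minus strand): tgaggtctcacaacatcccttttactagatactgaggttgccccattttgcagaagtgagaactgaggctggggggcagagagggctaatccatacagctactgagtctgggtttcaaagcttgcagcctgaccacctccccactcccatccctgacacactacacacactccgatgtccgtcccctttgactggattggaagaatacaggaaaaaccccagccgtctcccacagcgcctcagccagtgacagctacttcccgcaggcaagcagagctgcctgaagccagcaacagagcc
Stab2, chr7:23320513-23320812 (minus strand): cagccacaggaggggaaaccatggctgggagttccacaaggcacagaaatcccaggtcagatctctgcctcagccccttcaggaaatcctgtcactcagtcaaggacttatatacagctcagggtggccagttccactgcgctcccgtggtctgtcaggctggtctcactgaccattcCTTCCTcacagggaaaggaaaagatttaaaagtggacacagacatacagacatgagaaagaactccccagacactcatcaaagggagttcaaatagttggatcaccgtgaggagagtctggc
Lyve1, chr1:174410928-174411227 (minus strand): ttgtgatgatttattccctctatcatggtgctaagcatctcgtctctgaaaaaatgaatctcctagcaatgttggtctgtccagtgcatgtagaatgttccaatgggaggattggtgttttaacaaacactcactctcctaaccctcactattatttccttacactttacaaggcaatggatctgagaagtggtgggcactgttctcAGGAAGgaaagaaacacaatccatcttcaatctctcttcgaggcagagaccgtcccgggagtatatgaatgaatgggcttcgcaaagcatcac
Kdr, chr14:32571813-32572112 (plus strand): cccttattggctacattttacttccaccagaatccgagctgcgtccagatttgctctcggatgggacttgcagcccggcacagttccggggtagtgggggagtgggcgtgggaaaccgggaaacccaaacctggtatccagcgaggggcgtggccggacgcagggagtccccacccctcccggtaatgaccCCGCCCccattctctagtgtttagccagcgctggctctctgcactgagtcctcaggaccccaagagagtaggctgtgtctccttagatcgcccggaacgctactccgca
Capitals mark matches, on either strand, to 5 short motifs that are read as a description and not as binding sites. The ETS cores AGGAAG and CGGAAG, bound by a factor family active in endothelium, occur in 34.5% and 16.6% of the 33469 promoters of this length. The GATA motif AGATAA occurs in 11.6%, the SOX motif ACAATG in 13.2% and the SP1 motif GGGCGG in 33.1%. AGGAAG was found on the strand opposite the printed one at -72 in Stab2 and on the printed strand at -43 in Lyve1. GGGCGG was found on the strand opposite the printed one at -59 in Kdr. The Gpr182 window held none of these letters, which says only that they are not in this window.

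Gpr182, an atypical chemokine receptor of sinusoidal and lymphatic endothelium, gave the most regular pattern. Its brighter probe set measured 9.55, 9.41, 9.44, 9.56 and 9.25 in the 5 controls. It measured 9.20, 8.72 and 9.08 at 66 mg/kg, 9.21, 9.29 and 9.10 at 132 mg/kg and 9.03, 9.04 and 8.88 at 263.6 mg/kg. It measured 9.02, 8.83 and 8.98 at 527.1 mg/kg and 9.15, 8.88 and 8.69 at 1054.2 mg/kg. All 15 dosed rats were below the control mean and 14 were below the lowest control; the other was a 132 mg/kg rat at 9.29.

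The fall in Gpr182 was -0.53 ± 0.12 at 1054.2 mg/kg (SE, 95% interval -0.78 to -0.29, adjusted p = 0.0119) and -0.50 ± 0.12 at 527.1 mg/kg (adjusted p = 0.0286), both from limma. By mean level the groups stood in the order 1054.2 mg/kg (8.91 ± 0.23), 527.1 mg/kg (8.94 ± 0.10), 263.6 mg/kg (8.98 ± 0.09), 66 mg/kg (9.003 ± 0.25), 132 mg/kg (9.20 ± 0.10) and controls (9.44 ± 0.13, SD). Each gap between neighbouring dose means was smaller than the larger of the pair's SDs, and the gap to the controls was larger. Without 1054.2 mg/kg replicate 2 or 3 the adjusted p at that dose was 0.0571 or 0.115. The call at 527.1 mg/kg was lost without control replicate 1, 3 or 4 or without any 1 rat of that dose, with adjusted p between 0.0617 and 0.132. The dimmer probe set was -0.36 ± 0.21 at 1054.2 mg/kg (adjusted p = 0.479) and between -0.51 and -0.28 at the 4 lower doses, none of which passed.

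Stab2 encodes stabilin-2, a scavenger receptor that clears hyaluronan from the blood. It measured 10.52, 10.34, 10.28, 10.36 and 10.01 in controls. It measured 10.44, 8.94 and 9.89 at 66 mg/kg, 10.07, 9.88 and 9.87 at 132 mg/kg and 9.86, 9.71 and 9.74 at 263.6 mg/kg. It measured 10.03, 9.66 and 9.82 at 527.1 mg/kg and 9.95, 9.58 and 9.66 at 1054.2 mg/kg. The 1054.2 and 263.6 mg/kg rats all lay below every control, while the 66 mg/kg rats held both the lowest value of all and one among the highest. The change at 1054.2 mg/kg was -0.57 ± 0.21 (SE, adjusted p = 0.165, limma), larger in size than that of Gpr182 but with more spread between rats, and it did not pass.

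Lyve1, a hyaluronan-binding receptor of sinusoidal and lymphatic endothelium, did not pass in any comparison. Its brighter probe set measured 11.22, 11.15, 10.92, 11.15 and 10.81 in controls. It measured 11.19, 10.39 and 10.53 at 66 mg/kg, 11.28, 10.47 and 10.64 at 132 mg/kg and 10.75, 10.48 and 10.66 at 263.6 mg/kg. It measured 10.77, 10.73 and 10.73 at 527.1 mg/kg and 10.92, 10.76 and 10.54 at 1054.2 mg/kg. Of the 15 dosed rats 12 were below the lowest control, and 1, a 132 mg/kg rat, was above the highest. The change at 1054.2 mg/kg was -0.31 ± 0.17 for this probe set (SE, adjusted p = 0.434) and -0.15 ± 0.22 for the dimmer one (adjusted p = 0.833, limma). The second probe set ran from 10.44 to 11.11 at 1054.2 mg/kg and from 10.66 to 11.06 in controls, so the groups overlapped.

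**Figure D2:**
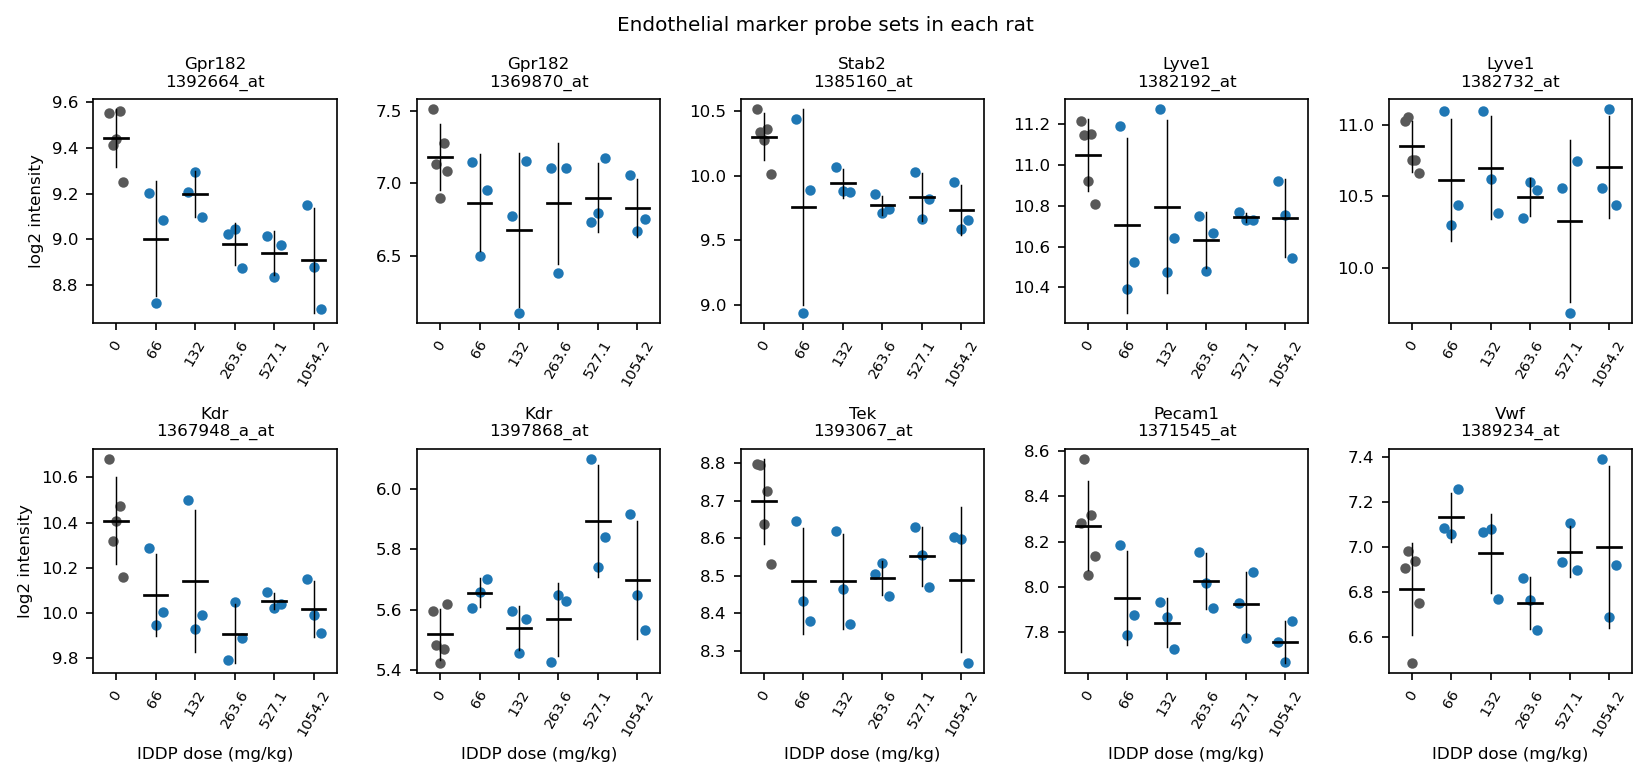
Log2 intensity (y axis) of the 10 probe sets in each of the 20 rats against IDDP dose (x axis, mg/kg, doses evenly spaced), with controls in grey at 0; bars are group means and lines are SD. In the brighter Gpr182 panel 14 of 15 dosed rats lie below the lowest control, and the y axes differ between panels.

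Kdr, the main signalling receptor for VEGF-A, was read by 2 probe sets that disagreed. The brighter one measured 10.68, 10.32, 10.41, 10.47 and 10.16 in controls. It measured 10.29, 9.95 and 10.01 at 66 mg/kg, 10.50, 9.93 and 9.99 at 132 mg/kg and 9.79, 10.05 and 9.89 at 263.6 mg/kg. It measured 10.09, 10.02 and 10.04 at 527.1 mg/kg and 10.15, 9.99 and 9.91 at 1054.2 mg/kg. Of the 15 dosed rats 13 lay below the lowest control, and the 3 highest doses did not overlap with the controls. Its change was -0.39 ± 0.13 at 1054.2 mg/kg (SE, adjusted p = 0.115) and -0.50 ± 0.13 at 263.6 mg/kg (adjusted p = 0.0949), so no single dose passed in limma.

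The dimmer Kdr probe set lay in the other direction. It measured 6.10, 5.74 and 5.84 at 527.1 mg/kg, against 5.60, 5.48, 5.43, 5.47 and 5.62 in controls. All 3 dosed rats were above all 5 controls, and the change of 0.37 ± 0.10 (SE) had an adjusted p of 0.0582 in limma. At 1054.2 mg/kg it was 0.18 ± 0.10 (adjusted p = 0.419), with values between 5.53 and 5.92, against 5.43 to 5.62 in controls. Over the 20 arrays r between both Kdr probe sets was -0.13 as measured and 0.32 after each dose group's mean was removed. For Gpr182 these were 0.41 and 0.24, and for Lyve1 0.62 and 0.58.

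Tek, the angiopoietin receptor Tie2, had the smallest differences among the genes measured lower, with each gene read from its brighter probe set. It measured 8.80, 8.80, 8.64, 8.73 and 8.53 in controls. It measured 8.65, 8.43 and 8.38 at 66 mg/kg, 8.62, 8.46 and 8.37 at 132 mg/kg and 8.51, 8.53 and 8.45 at 263.6 mg/kg. It measured 8.63, 8.56 and 8.47 at 527.1 mg/kg and 8.60, 8.60 and 8.27 at 1054.2 mg/kg. All 15 dosed rats were below the control mean, but 7 of them lay above the lowest control. The 5 changes ran from -0.21 to -0.15, with -0.21 ± 0.10 at 1054.2 mg/kg (SE, adjusted p = 0.319, limma).

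Pecam1 (CD31), a cell adhesion protein at endothelial junctions that platelets and leukocytes also carry, fell at the highest dose. It measured 8.28, 8.56, 8.05, 8.32 and 8.13 in controls. It measured 8.18, 7.79 and 7.88 at 66 mg/kg, 7.94, 7.87 and 7.73 at 132 mg/kg and 8.15, 8.02 and 7.91 at 263.6 mg/kg. It measured 7.93, 7.78 and 8.06 at 527.1 mg/kg and 7.76, 7.67 and 7.85 at 1054.2 mg/kg. All 15 dosed rats were below the control mean, and 12 were below the lowest control.

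The change in Pecam1 at 1054.2 mg/kg was -0.51 ± 0.12 (SE, 95% interval -0.75 to -0.27, adjusted p = 0.0160, limma). By mean level the groups stood in the order 1054.2 mg/kg (7.76 ± 0.09), 132 mg/kg (7.84 ± 0.11), 527.1 mg/kg (7.92 ± 0.14), 66 mg/kg (7.95 ± 0.21), 263.6 mg/kg (8.03 ± 0.12) and controls (8.27 ± 0.20, SD). Each gap between neighbouring dose means was again smaller than the larger SD of the pair. Without 1054.2 mg/kg replicate 2 the adjusted p was 0.0904. Of 7 platelet and megakaryocyte markers 1 fell at this dose, where 2.14% of all genes did. It was Itgb3, a platelet integrin subunit (-0.67 ± 0.13, SE, adjusted p = 0.00416, limma). The log2 of the summed unlogged intensities of the 7, weighted to the brightest genes, was 9.96 to 10.24, against 10.22 to 10.37 in controls. Summed in the same way, 10 leukocyte markers were at 9.46 to 9.81, against 9.81 to 9.93 in controls. Of them 0 fell in limma, with 1 lower at an unadjusted p under 0.05, where 6.79% of all tested probe sets were lower. The T cell kinase gene Lck was that 1 (-0.27 ± 0.08, adjusted p = 0.0974), and it fell by slope. The part of either cell type in the Pecam1 result was not tested.

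Vwf, the gene of von Willebrand factor, which tethers platelets to injured vessel walls, did not share the lower values. It measured 6.90, 6.98, 6.48, 6.94 and 6.75 in controls. It measured 7.08, 7.06 and 7.26 at 66 mg/kg, 7.07, 7.08 and 6.77 at 132 mg/kg and 6.86, 6.76 and 6.63 at 263.6 mg/kg. It measured 6.93, 7.11 and 6.90 at 527.1 mg/kg and 7.39, 6.69 and 6.92 at 1054.2 mg/kg. None of the 15 dosed rats lay below the lowest control and 7 lay above the highest, including all 3 at 66 mg/kg. The changes were 0.32 ± 0.14 at 66 mg/kg (SE, adjusted p = 1) and 0.19 ± 0.14 at 1054.2 mg/kg (adjusted p = 0.594), and no comparison passed in limma. Without 1054.2 mg/kg replicate 1, the rat at 7.39, the change at that dose was -0.0094.

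The trend over dose was read with the controls included, so a step between controls and dosed rats can also give a slope. As a slope on the dose rank from 0 for controls to 5 for 1054.2 mg/kg, 2 of the 10 probe sets fell, against 2.08% of all tested probe sets. These were the brighter Gpr182 probe set, at -0.10 ± 0.02 per rank (SE, adjusted p = 0.00975), and Pecam1, at -0.08 ± 0.02 (adjusted p = 0.0346, both limma). Without 66 mg/kg replicate 2, the rat with the lowest mean of the 7 genes, 4 probe sets passed, those of Gpr182, Stab2, Kdr and Pecam1. Without control replicate 1, 2 or 4, 66 mg/kg replicate 1, 527.1 mg/kg replicate 2 or 1054.2 mg/kg replicate 2 or 3, the count was 1. On the dose in mg/kg in place of its rank, 0 passed, with an adjusted p of 0.0931 for Gpr182 and 0.126 for Pecam1.

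None of the 10 passed among the dosed rats. The highest dose minus the lowest gave 0 of 10 past the threshold in limma and 0 at an unadjusted p under 0.05, where 0.496% of all tested probe sets passed. The 10 differences ran from -0.19 to 0.09, with -0.09 for Gpr182 (95% interval -0.36 to 0.17) and -0.19 for Pecam1 (95% interval -0.46 to 0.08). The slope over the 15 dosed rats alone also gave 0 of 10, and 0 at an unadjusted p under 0.05, where 0.445% of all tested probe sets passed. These intervals leave room for differences between doses of the size of several of the changes against control.

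Because the dose groups looked alike, the mean of the 5 dose groups was also set against the controls, a comparison chosen after the values were seen. Of the 10 probe sets 3 fell, against 1.14% of all tested probe sets. The brighter Gpr182 probe set was -0.44 ± 0.08 (adjusted p = 0.00732), Pecam1 -0.37 ± 0.08 (adjusted p = 0.0191) and the brighter Kdr probe set -0.37 ± 0.09 (SE, adjusted p = 0.0335, limma). Stab2 was -0.50 ± 0.15 (adjusted p = 0.0775), Lyve1 -0.33 ± 0.12 (0.171 adjusted), Tek -0.20 ± 0.07 (0.144 adjusted) and Vwf 0.15 ± 0.10 (0.480 adjusted). Without control replicate 1, 2 or 4, Gpr182 was the 1 that passed.

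Averaged over the 7 genes, with each read from its brighter probe set, the 5 dose groups stood below the control mean by similar amounts. In rising order of dose the difference was -0.27 ± 0.27, -0.23 ± 0.17, -0.35 ± 0.06, -0.28 ± 0.05 and -0.33 ± 0.16 (SD), with an SD of 0.14 in controls. The 66 mg/kg rats spread widest, from -0.53 in replicate 2, the lowest of all 20, to 0.01 in replicate 1. Controls ran from -0.19 to 0.14.

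The genes were positively correlated from rat to rat, Vwf included once dose differences were removed. Over the 20 arrays, after each dose group's mean was removed, r for the 15 pairs without Vwf ran from 0.28 (Kdr and Pecam1) to 0.80 (Gpr182 and Stab2), with a median of 0.56. The 6 pairs with Vwf ran from 0.24 to 0.46, which overlaps the range of the others. As measured, with dose differences left in, these ranges were 0.56 to 0.85 and -0.11 to 0.07. These are descriptions, since genes of 1 array share its tissue, RNA extract and normalization.

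**Figure D3:**
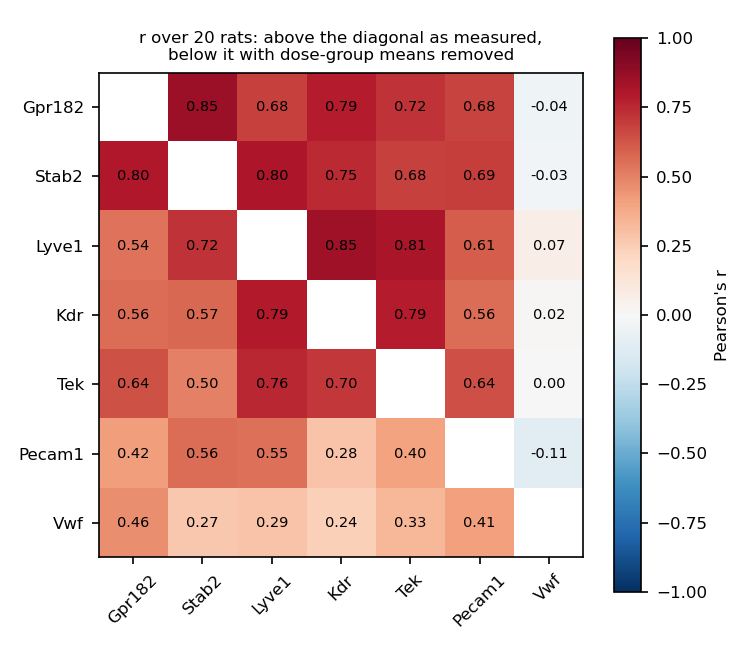
Pearson's r between the 7 genes over 20 rats, above the diagonal as measured and below it after the dose-group means were removed (colour scale from -1 to 1). Pairs among the 6 genes other than Vwf lie between 0.28 and 0.85, and Vwf stands apart above the diagonal, between -0.11 and 0.07.

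The genes most like each marker over the 20 arrays, again with group means removed and among 9667 candidates, are given here by their 3 highest r. Stab2 was nearest to Dnase1l3, an extracellular DNase (r = 0.93), Ccl24 (0.89) and the inhibitory Fc receptor gene Fcgr2b (0.85). Lyve1 was nearest to Fcgr2b (0.92), Srgn (0.86) and the mannose receptor gene Mrc1 (0.84). Gpr182 was nearest to the natriuretic peptide receptor gene Npr1 (0.88), Prkch (0.84) and Timp2 (0.82). Kdr was nearest to Cd53 (0.87), the ETS factor gene Elk3 (0.86) and Akr1b1 (0.82), and Tek to Ackr4 (0.85), Lyve1 (0.76) and Gabbr1 (0.75). Pecam1 was nearest to Serpinb6b (0.85), Adgrl4 (0.75) and the laminin gene Lama4 (0.73). Vwf was nearest to the chemokine gene Cxcl16 (0.86), Klf10 (0.84) and Serpinb1a (0.83).

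Other genes of the endothelium and of the pathways around these markers were read from 9 lists, with 89 of 103 genes measured. At the highest dose 7 of 89 fell and 0 rose, a share of 7.87% where 2.14% of 14217 genes fell. Their median change was -0.18, against 0.00 over all genes, and 68 of 89 were below 0, where 49.8% of all genes were. The 7 were Cd93 (-0.77 ± 0.19), Sox7 (-0.67 ± 0.17) and Sox18 (-0.58 ± 0.13), transcription factors of endothelial differentiation, Dnase1l3 (-0.54 ± 0.14), the Notch target Hey1 (-0.52 ± 0.13), the fenestral diaphragm protein gene Plvap (-0.44 ± 0.10) and the Wnt ligand gene Wnt2 (-0.35 ± 0.10). Their adjusted p ran from 0.0145 for Plvap to 0.0496 for Wnt2 (SE, limma). The Sox7 probe set was dim, with a mean of 5.07 over all arrays, below the median of 6.365 over all tested probe sets. The count was 1 without control replicate 4 or without 1054.2 mg/kg replicate 2, 2 without control replicate 1 or without 1054.2 mg/kg replicate 3, 3 without control replicate 3, and 4 without control replicate 2 or without 1054.2 mg/kg replicate 1. Without 1054.2 mg/kg replicate 2 none of the 7 named genes passed. Their adjusted p in limma then ran from 0.0667 for Plvap to 0.19 for Sox7, so the 1 counted there was another gene.

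The lower doses gave 0 of 89 at 66 and 132 mg/kg, where 0% and 0.0422% of all genes fell. At an unadjusted p under 0.05 in limma 10 and 26 were lower and 1 and 2 higher. Over all tested probe sets 1.54% and 6.78% were lower at that threshold. Nrp1, a VEGF co-receptor gene, fell at 263.6 mg/kg, 1 of 89 where 0.225% of all genes fell. At 527.1 mg/kg 3 fell where 0.64% of all genes did, Sox7, Sox18 and Procr, the endothelial protein C receptor gene; that count was 0 without replicate 2 or 3 of that dose and 1 without its replicate 1 or without control replicate 1, 3 or 4. By slope 11 fell and 0 rose, or 12.4%, where 2.98% of all genes fell. The 4 that passed by slope and at neither of the 2 highest doses were Mrc1 (-0.10 ± 0.03 per rank), the growth factor gene Hgf (-0.05 ± 0.01), the thrombomodulin gene Thbd (-0.13 ± 0.03) and the ETS factor gene Ets1 (-0.11 ± 0.03). The Hgf probe set was dim, with a mean of 5.56 over all arrays. The slope count was 5 without control replicate 1, 3 or 4, and 3 on the dose in mg/kg. That slope counts the controls as rank 0. Among dosed rats alone the slope gave 0 of 89, where 0.26% of all genes fell and 0.422% rose. The highest dose minus the lowest also gave 0 of 89, where 0.281% of all genes fell and 0.499% rose. For the mean of 5 doses against controls 9 of 89 fell in limma, where 1.67% of all genes did.

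**Figure D4:**
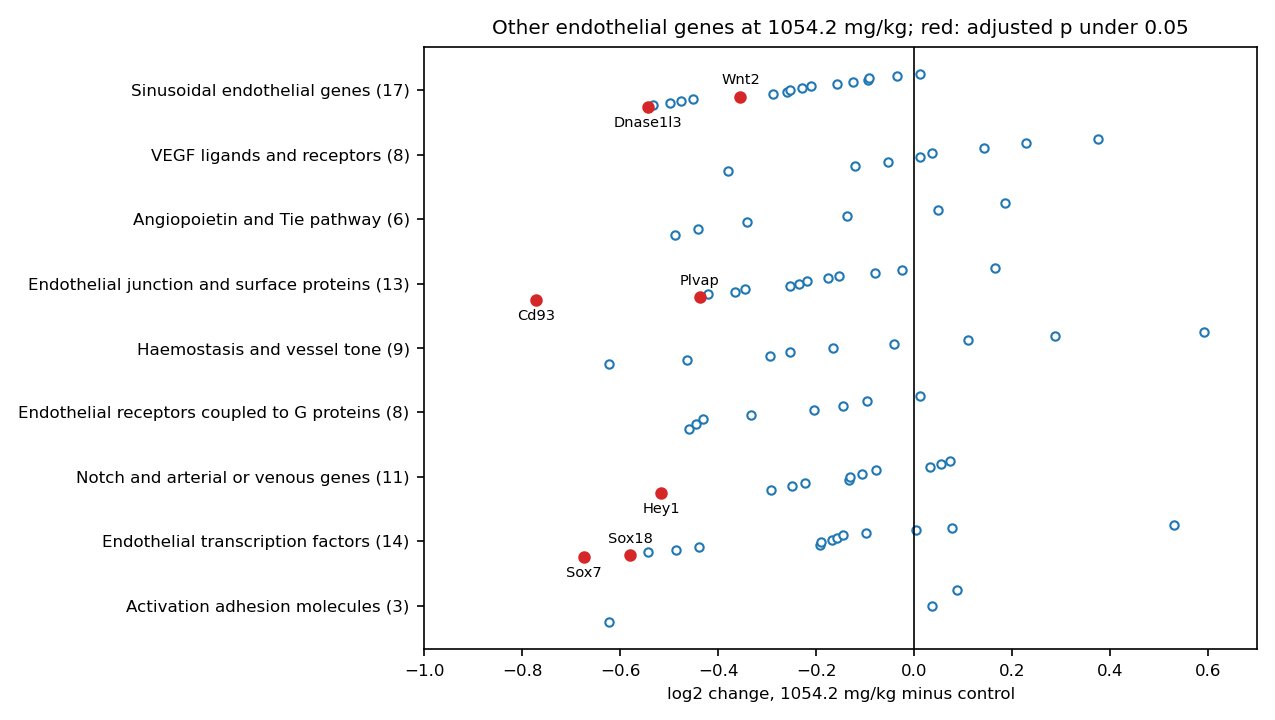
Log2 change at 1054.2 mg/kg minus control (x axis) of 89 other endothelial genes by list (y axis, with the number drawn; a gene of several lists is drawn in its first, and height within a list has no meaning). Red points, named, are the 7 that passed at adjusted p under 0.05, and all 7 lie below 0.

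The VEGF and angiopoietin ligand genes were not among the genes that passed. At the highest dose the changes were 0.23 ± 0.13 for Vegfa, 0.14 ± 0.13 for Vegfb and 0.38 ± 0.13 for Vegfc (adjusted p = 0.119, limma). Vegfd was 0.01 ± 0.11 and Pgf -0.12 ± 0.08, while Angpt1 was 0.05 ± 0.10 and Angpt2 0.19 ± 0.12 (SE). Angpt1 lay at 3.64 at this dose and 3.59 in controls, in the dim range where changes are hard to see. Among receptors and partners, Flt1 was -0.05 ± 0.13, Nrp1 -0.38 ± 0.18, Tie1, the partner of Tek, -0.44 ± 0.19, and Ptprb, the phosphatase that acts on Tek, -0.49 ± 0.16 (adjusted p = 0.124). Of the 9 VEGF genes and 6 angiopoietin genes measured, 0 passed in limma at this dose. At an unadjusted p under 0.05 there were 1 lower and 1 higher, and 3 lower and 0 higher. Over all tested probe sets 6.79% were lower at that threshold. In other endothelial lists where none passed at this dose or by slope, the genes furthest from 0 in their lists were Vcam1 and Adgrl4. The adhesion molecule gene Vcam1 was -0.62 ± 0.21 (adjusted p = 0.117) and the endothelial receptor gene Adgrl4 -0.46 ± 0.14 (SE, adjusted p = 0.0907, limma).

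Many markers of neighbouring non-parenchymal cells were also lower. At the highest dose 6 of 11 Kupffer cell and macrophage markers and 7 of 17 stellate cell and fibroblast markers fell, where 2.14% of all genes did. Their medians were -0.54 and -0.39. Of 17 hepatocyte genes 0 fell (median -0.10). At an unadjusted p under 0.05 in limma 0 of these 17 were lower, where 6.79% of all tested probe sets were. Among the Kupffer markers the complement gene C1qb was -0.74 ± 0.18 and Cd5l -0.65 ± 0.14 (SE, adjusted p = 0.0250 and 0.0107, limma), and both passed. The scavenger receptor gene Cd163 (-0.69 ± 0.19) and the lysozyme gene Lyz2 (-0.68 ± 0.19) passed by slope and not at this dose. Cd14, an endotoxin co-receptor gene, lay in the other direction, at 10.996 at 1054.2 mg/kg and 10.37 in controls (0.62 ± 0.21, adjusted p = 0.123). Among the stellate markers the retinol-esterifying enzyme gene Lrat was -0.86 ± 0.21, the PDGF receptor gene Pdgfrb -0.77 ± 0.15, the collagen gene Col3a1 -0.76 ± 0.17 and Ecm1 -0.68 ± 0.18, with adjusted p between 0.00585 and 0.0356 (limma). The hepatocyte gene furthest from 0 was the transcription factor gene Hnf4a, at -0.19 ± 0.10 (adjusted p = 0.407). As the log2 of summed unlogged intensities, the Kupffer markers were at 13.43 to 13.64 at that dose, against 13.87 to 14.13 in controls. The stellate markers were at 12.62 to 12.78, against 13.08 to 13.42. The 7 endothelial genes summed to 12.08 to 12.40, against 12.38 to 12.80 in controls, and the hepatocyte genes to 18.41 to 18.42, against 18.46 to 18.49. No marker was at 0 on this scale, which says little, since even dim genes such as Angpt1 (3.59 in controls) stay above 0. Without 1054.2 mg/kg replicate 3, 0 Kupffer and 3 stellate markers fell. Kupffer counts were 2 or 3 without control replicate 1 or 4 or without 1054.2 mg/kg replicate 1 or 2, and the stellate count was 3 without 1054.2 mg/kg replicate 2.

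The mean of the 7 endothelial genes correlated over the 20 arrays with that of the Kupffer markers (r = 0.71 as measured and 0.65 with group means removed) and the stellate markers (0.74 and 0.53). It correlated with that of the 89 other endothelial genes at 0.91 and 0.86, and with that of the hepatocyte genes at 0.49 and 0.00. These means share arrays and normalization. At 1054.2 mg/kg erythroid markers had a median of -0.54, with 0 of 4 past the threshold in limma. There were 2 lower at an unadjusted p under 0.05, where 6.79% of all tested probe sets were lower. Alas2, of haem synthesis, was -0.91 ± 0.26 (SE, adjusted p = 0.0635, limma). Of 5 lymphatic markers 1 fell, where 2.14% of all genes did, Reln (-0.64 ± 0.14), which the stellate list also holds. The part of other cell types in the endothelial values was not tested.

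**Figure D5:**
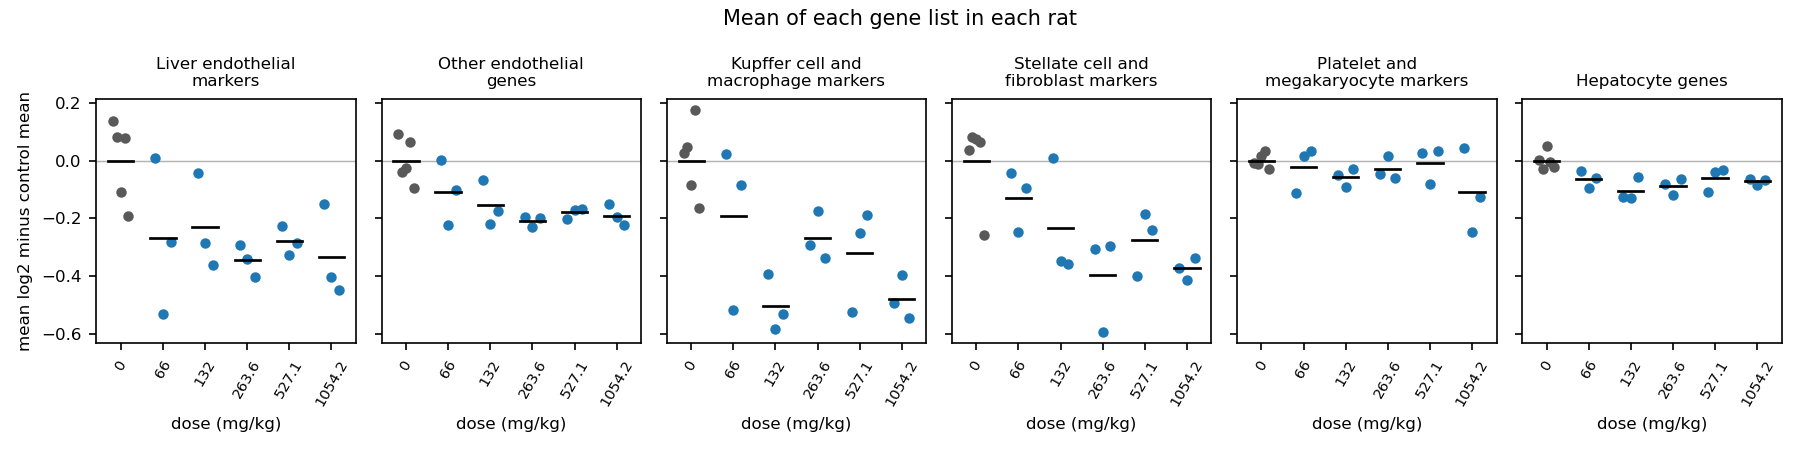
Mean log2 value of each gene list per rat minus the control mean (y axis) against dose (x axis, mg/kg, doses evenly spaced); points are rats, bars group means, controls in grey at 0. At 1054.2 mg/kg the means are -0.33 for the endothelial markers, -0.48 for Kupffer, -0.37 for stellate and -0.07 for hepatocyte genes.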

How the data were processed

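Liver expression was measured on 1 array per rat. The deposited values are log2 intensities for each probe set, and RMA (background correction, normalization and summarization of probes) is named in the submitters' processing notes. Neither its version nor the set of arrays it was run on is given in the sources used here. The log2 values were taken as deposited by the authors, with groups from the dose in the labels. Of the probe sets, 57 controls were left out and 31042 tested: 20826 had 1 symbol, 436 had several and 9780 are unnamed here. In limma 3.58.1, all 20 arrays entered a linear model with a mean for each dose group (R 4.3.3, 14 residual and 5.753 prior degrees of freedom), with two-sided tests, and a second model gave the slope on dose rank. The fit was tested on simulated data. Genes with several probe sets were read from the one with the highest mean over all arrays, except where each is given. With 5 controls and 3 rats per dose, the number of arrays limits the precision.

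All probe sets of the 8 genes are named. From each other list the genes past the threshold at 1054.2 mg/kg or by slope are named, up to the 4 largest changes a list, or the 1 largest where none passed. Genes named beyond this rule, to complete a count or as ligands and partners of the receptors, were chosen after their values were seen. Likeness took the 3 genes of highest r with a mean above the median of all tested probe sets. The members and lists were chosen with earlier results of these data known, from general knowledge of liver. Some listed genes are also expressed by other liver cells, and 5 stand in more than 1 list. Alternatives were dim probe sets left out, 1 probe set per gene, centred array medians, a second quantile normalization, intensity trend and robust moderation, the compared groups alone, a replicate block, RNA quality as a covariate, degraded arrays left out, and each rat left out.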

Additional observations from a re-analysis of the deposited data

How the results depend on the processing

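Without 1 rat, the number of the 10 probe sets past the threshold was 0 to 0 at 66 and 132 mg/kg, 0 to 1 at 263.6, 0 to 2 at 527.1 (1 with all rats), 0 to 3 at 1054.2 (2 with all rats), 1 to 4 for the slope (2 with all rats) and 1 to 4 for the mean of 5 doses (3 with all rats). It stayed at 0 for the highest against the lowest dose and for the slope among dosed rats. At 527.1 mg/kg 2 passed with medians centred, with quantile normalization again and with RNA quality as a covariate, the second being the dimmer Kdr probe set, which was higher. For the slope 0 passed on the dose in mg/kg. With the replicate number as a block, 1 passed for the slope, since Pecam1 had an adjusted p of 0.136. The numbers were not taken to pair the rats. Of 45 same-numbered pairs from different doses 15 correlated above 0.1 (median r 0.07). Of 90 pairs with other numbers 25 did (median r -0.02), and 7 of 18 arrays were most like one of the same number. For the mean of 5 doses the block gave 2 in place of 3, since Pecam1 had an adjusted p of 0.0835 in limma. The block gave counts within 1.5 times for the other comparisons of the 10 probe sets. It gave 3 of 89 other endothelial genes, 3 Kupffer and 7 stellate markers at 1054.2 mg/kg, and RNA quality as a covariate gave 11 of 89.

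Gpr182 passed for the mean of 5 doses in 28 of 28 alternatives (adjusted p 0.00246 to 0.0398). Kdr was lost there in 8 of 28 (up to 0.146) and Pecam1 in 4 of 28 (up to 0.0835). Signs turned only in changes that had not passed: leaving out 1 rat moved the dimmer Kdr probe set at 132 mg/kg between -0.00657 and 0.0627, the dimmer Lyve1 probe set at 132 mg/kg between -0.349 and 0.0075, Vwf at 1054.2 mg/kg between -0.0094 and 0.343, the Vwf slope between -0.00688 and 0.0297, and Gpr182 at 1054.2 minus 66 mg/kg between -0.236 and 0.0130. The cause of these shifts was not tested. Over all tested probe sets, without 1 rat, the count was 0 to 3 at 66 mg/kg (2 with all rats), 6 to 1482 at 132 mg/kg (21; 1482 without 132 mg/kg replicate 3), 38 to 260 at 263.6 (133), 212 to 646 at 527.1 (520), 405 to 1219 at 1054.2 (1024), 1092 to 1919 for the slope (1569), 42 to 218 for the highest against the lowest dose (154), 268 to 1221 for the mean of 5 doses (888) and 59 to 161 for the dosed slope (138). Under the other alternatives these were 2 to 11, 11 to 50, 56 to 221, 283 to 839, 614 to 1445, 879 to 2210, 91 to 209, 293 to 1016 and 115 to 192.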

Other observations

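Set against the mean of the other 6 genes in the same rat, and relative to the controls, Vwf was higher in every dosed rat. In rising order of dose the difference was 0.69 ± 0.33, 0.45 ± 0.16, 0.33 ± 0.07, 0.52 ± 0.18 and 0.61 ± 0.27 (SD). The lowest dosed rat stood at 0.26, and the controls ran from -0.26 to 0.15. This was noticed after the values were seen and is a description with no test.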
